A study of Mus musculus with 8 samples.

Results

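The genes described here are 10 genes of amino acid uptake and polyamine synthesis: the transporter genes Slc7a5, Slc3a2, Slc7a6, Slc7a1, Slc1a5, Slc38a1 and Slc38a2, and the enzyme genes Odc1, Srm and Amd1. They were taken by gene symbol, and all 10 were found among the 17495 genes measured in all sorted OT-I cells and among the 13126 rows measured in Ttex cells. All 10 passed the filter on low values in both tables. The members were selected on roles in these pathways with the fold changes between KO-labelled and WT-labelled libraries of these same tables in view, so their genotype differences are a description, and the p-values, adjusted over every tested gene, support nothing further.

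The study sequenced polyadenylated RNA of CD8+ T cells sorted from mouse tumors, in 8 libraries of 4 groups with 2 replicates each. The cells were OT-I cells, whose transgenic receptor recognises an ovalbumin peptide, and the tumors were B16-OVA, a melanoma line that makes ovalbumin. Zbtb32 is a zinc finger transcription factor, and the comparison asks how its loss alters tumor-infiltrating OT-I cells. Zbtb32 knockout and wild-type naive OT-I cells went into the same B6 hosts 1 day before the tumor cells were placed under the skin, and were recovered by sorting 30 days after implantation. The groups are knockout Tim-3+ Ttex cells, wild-type Tim-3+ Ttex cells, all sorted knockout OT-I cells and all sorted wild-type OT-I cells. Tim-3 is an inhibitory receptor, and Ttex is the submitters' name for the Tim-3+ subset, read here as terminally exhausted cells. Every group shared the OT-I receptor, the host strain and the tumor. The labels do not tie the replicates to separate animals, so p-values measure the spread between these libraries, which may be technical. For all sorted cells the limma fit took that spread from genes of like level, and not from each gene's own replicates.

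Recovered depth was 51.6 to 59.2 M reads in Ttex libraries and 18.6 to 21.1 M in libraries of all sorted cells. The labels do not say which part of Zbtb32 was deleted, and Zbtb32 RNA was not lower in the libraries labelled knockout. It stood at 6822 and 5715 normalized counts in KO-labelled and 3976 and 3951 in WT-labelled Ttex libraries (log2 fold change 0.66, adjusted p = 0.183, and 0.00797 in a fit with the replicate number as a block). In all sorted cells it stood at 94.9 and 73.0 FPKM in KO-labelled and 79.8 and 87.1 FPKM in WT-labelled libraries (log2 fold change -0.00, adjusted p = 0.994). The libraries are therefore called KO-labelled and WT-labelled throughout. All 12 T cell markers were detected in both populations.

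Activated T cells take up amino acids to feed protein synthesis and the growth kinase complex mTORC1. Slc7a5 and Slc7a6 encode light chains that reach the cell surface only when joined to the heavy chain encoded by Slc3a2, which is also known as CD98. Polyamines are the small cations putrescine, spermidine and spermine, and Odc1 makes the first of them, putrescine, from ornithine. The transcription factor MYC is known to raise several of these genes after T cell activation.

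Of the 7 transporter genes, Slc7a5 was lower in KO-labelled cells when all sorted OT-I cells were compared, and the other 6 did not pass the test. Of the 3 enzyme genes, Odc1 and Srm were lower and Amd1 did not pass. Over all tested genes, 30.4% were called lower in all sorted cells. In Ttex cells none of the 10 passed, where 0.0239% of all tested rows were called in either direction. Fold changes are KO-labelled over WT-labelled, computed on log2(value + 1), so that those of genes with low values come out too small, and a gene was called at an adjusted p under 0.05.

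Slc7a5 encodes LAT1, the light chain that imports leucine and other large neutral amino acids (chromosome 8, 121881150 to 121907694, minus strand, mm10). When all sorted cells were compared it had 3.51 and 3.45 FPKM in KO-labelled libraries, against 14.2 and 14.5 FPKM in WT-labelled libraries, from 279 and 297 reads against 1015 and 1079. Both KO-labelled libraries lay far below both WT-labelled ones, and the replicates of each genotype were close. The log2 fold change was -1.78 (SE 0.18, adjusted p = 8.09e-21), and the WT-labelled mean was 4.13 times the KO-labelled mean. In Ttex cells Slc7a5 had 12546 and 13409 normalized counts in KO-labelled and 14680 and 13990 in WT-labelled libraries. The KO-labelled values were again the lower ones, without overlap, but the log2 fold change was -0.14 (SE 0.12, adjusted p = 0.585).

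Slc3a2, the heavy chain that Slc7a5 needs, did not move with it (chromosome 19, 8706882 to 8723369, minus strand). Its values in all sorted cells were 97.5 and 79.4 FPKM in KO-labelled and 97.5 and 105.6 FPKM in WT-labelled libraries. The highest KO-labelled and the lowest WT-labelled library were nearly equal, and the log2 fold change was -0.20 (SE 0.23, adjusted p = 0.518). In Ttex cells the KO-labelled libraries had 20196 and 19103 normalized counts and the WT-labelled libraries 19445 and 20108, with a log2 fold change of -0.01 (SE 0.12, adjusted p = 0.977). Slc7a6 encodes y+LAT2, another light chain of Slc3a2 that exchanges basic for neutral amino acids (chromosome 8, 106168857 to 106198706, plus strand). It had 34.2 and 29.3 FPKM in KO-labelled and 36.2 and 37.8 FPKM in WT-labelled libraries of all sorted cells (log2 fold change -0.22, SE 0.21, adjusted p = 0.453). In Ttex cells it had 4411 and 5010 normalized counts in KO-labelled and 4807 and 4413 in WT-labelled libraries, which overlap (log2 fold change 0.03, SE 0.13, adjusted p = 0.932).

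**Figure D1:**
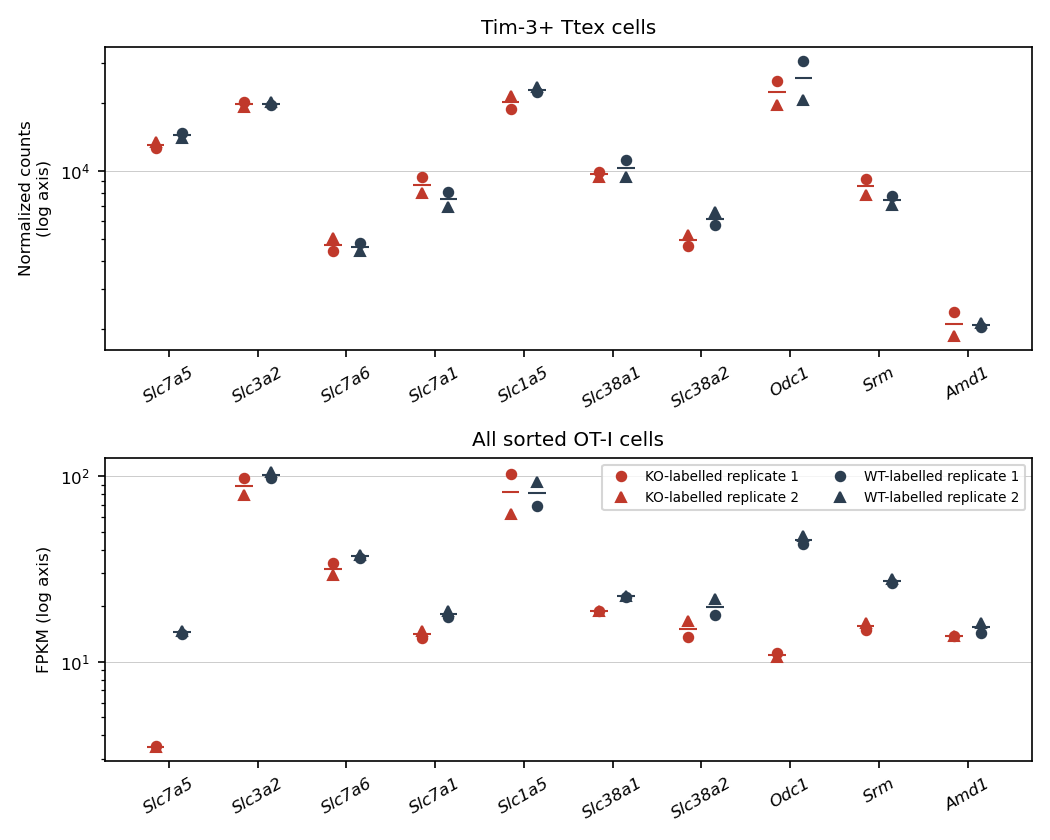
Level of each of the 10 genes in every library, on a log axis, as normalized counts in Ttex cells (upper panel) and FPKM in all sorted OT-I cells (lower panel), with KO-labelled libraries in red, WT-labelled libraries in dark blue, and the mean of the replicates as a bar. In all sorted cells Slc7a5 stood at 3.51 and 3.45 FPKM in KO-labelled libraries against 14.2 and 14.5 in WT-labelled ones, and Odc1 at 11.2 and 10.6 against 43.1 and 47.5, while the upper panel has no such gap.

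Set per exon length within each library, the Slc7a5 level was a smaller part of the Slc3a2 level in all sorted cells of either label than in Ttex cells. In Ttex cells the ratio of Slc7a5 to Slc3a2 was 0.591 and 0.668 in KO-labelled and 0.719 and 0.662 in WT-labelled libraries. The same ratio in all sorted cells was 0.0360 and 0.0434 in KO-labelled and 0.145 and 0.138 in WT-labelled libraries. The labels did not overlap in all sorted cells and overlapped in Ttex cells. The Slc7a6 to Slc3a2 ratio overlapped in each population: 0.169 and 0.203 in KO-labelled against 0.191 and 0.170 in WT-labelled Ttex libraries, and 0.351 and 0.369 against 0.371 and 0.358 in all sorted cells. These ratios are descriptions, since Slc7a5 was chosen with its values known.

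The remaining transporters differed less. Slc7a1 encodes CAT1, an importer of arginine and lysine (chromosome 5, 148327410 to 148399904, minus strand). It had 13.5 and 14.5 FPKM in KO-labelled and 17.5 and 18.8 FPKM in WT-labelled libraries of all sorted cells, without overlap (log2 fold change -0.35, SE 0.20, adjusted p = 0.159). In Ttex cells its normalized counts were 9341 and 7981 in KO-labelled and 8032 and 6922 in WT-labelled libraries, an overlapping difference of the other sign (log2 fold change 0.21, SE 0.14, adjusted p = 0.509).

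Slc1a5 encodes ASCT2, an exchanger of glutamine and other small neutral amino acids (chromosome 7, 16781340 to 16798274, plus strand). It was the member with the least even replicates in all sorted cells, at 102.4 and 62.6 FPKM in KO-labelled and 69.2 and 93.5 FPKM in WT-labelled libraries, so that each genotype held a high and a low library. The log2 fold change was -0.01 (SE 0.22, adjusted p = 0.983). In Ttex cells the KO-labelled libraries had 18692 and 21327 normalized counts and the WT-labelled libraries 22263 and 23364, which do not overlap (log2 fold change -0.19, SE 0.13, adjusted p = 0.514).

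Slc38a1 and Slc38a2 encode SNAT1 and SNAT2, sodium-coupled importers of glutamine and alanine that lie side by side on the minus strand of chromosome 15, at 96571418 to 96642913 and 96687392 to 96699730. Slc38a1 in all sorted cells had 18.8 and 18.9 FPKM in KO-labelled and 22.2 and 22.7 FPKM in WT-labelled libraries, with a log2 fold change of -0.24 (SE 0.20, adjusted p = 0.370). Slc38a2 had 13.5 and 16.5 FPKM in KO-labelled and 17.8 and 21.7 FPKM in WT-labelled libraries, with a log2 fold change of -0.38 (SE 0.20, adjusted p = 0.130). Both genes were thus lower in each KO-labelled library than in each WT-labelled one, as were 56.6% of all tested genes, and neither passed the test. With each library centred on its median gene, the log2 fold changes were 0.0067 for Slc38a1 and -0.13 for Slc38a2. In Ttex cells Slc38a1 had 9844 and 9399 normalized counts in KO-labelled and 11103 and 9376 in WT-labelled libraries, which overlap (log2 fold change -0.09, SE 0.13, adjusted p = 0.779). Slc38a2 had 4641 and 5182 in KO-labelled and 5721 and 6538 in WT-labelled Ttex libraries, without overlap (log2 fold change -0.32, SE 0.13, adjusted p = 0.350).

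Odc1 encodes ornithine decarboxylase, the enzyme that commits ornithine to polyamines by making putrescine (chromosome 12, 17544794 to 17551505, plus strand). Among all sorted cells it had 11.2 and 10.6 FPKM in KO-labelled libraries, against 43.1 and 47.5 FPKM in WT-labelled libraries, from 815 and 837 reads against 2834 and 3238. As with Slc7a5, the genotypes were far apart and their replicates close, with a log2 fold change of -1.96 (SE 0.20, adjusted p = 1.82e-19) and a WT-labelled mean 4.17 times the KO-labelled mean. In Ttex cells Odc1 had 24946 and 19435 normalized counts in KO-labelled and 30583 and 20618 in WT-labelled libraries. There the groups overlap, and replicate 1 was the higher library under each label (log2 fold change -0.19, SE 0.22, adjusted p = 0.705).

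Srm encodes spermidine synthase, which turns putrescine into spermidine (chromosome 4, 148591503 to 148594993, plus strand). It had 14.9 and 16.2 FPKM in KO-labelled and 26.6 and 27.9 FPKM in WT-labelled libraries of all sorted cells, without overlap (log2 fold change -0.78, SE 0.20, adjusted p = 0.000857). The KO-labelled mean was 0.569 of the WT-labelled mean. In Ttex cells Srm stood the other way, at 9224 and 7818 normalized counts in KO-labelled and 7734 and 7049 in WT-labelled libraries, again without overlap, with a log2 fold change of 0.20 (SE 0.13, adjusted p = 0.509). Amd1 encodes adenosylmethionine decarboxylase, which supplies the aminopropyl donor that Srm needs (chromosome 10, 40287458 to 40302186, minus strand). Its values in all sorted cells were 13.8 and 13.8 FPKM in KO-labelled and 14.3 and 16.2 FPKM in WT-labelled libraries (log2 fold change -0.14, SE 0.19, adjusted p = 0.623). In Ttex cells Amd1 had 2363 and 1850 normalized counts in KO-labelled and 2027 and 2126 in WT-labelled libraries, which overlap (log2 fold change 0.01, SE 0.17, adjusted p = 0.983).

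Odc1 and Amd1 make a pair of polyamine enzymes of which Odc1 was called lower in all sorted cells and Amd1 did not pass the test, and their promoters are shown for that reason. The windows are those of RefSeq on GRCm38.p6, 300 bases reaching from 250 before to 50 after the start, read 5′ to 3′ on the gene's strand, with GGGCGG, the letters of a GC box, and its reverse complement CCGCCC in capitals.
Odc1, plus strand, chr12:17544623-17544922: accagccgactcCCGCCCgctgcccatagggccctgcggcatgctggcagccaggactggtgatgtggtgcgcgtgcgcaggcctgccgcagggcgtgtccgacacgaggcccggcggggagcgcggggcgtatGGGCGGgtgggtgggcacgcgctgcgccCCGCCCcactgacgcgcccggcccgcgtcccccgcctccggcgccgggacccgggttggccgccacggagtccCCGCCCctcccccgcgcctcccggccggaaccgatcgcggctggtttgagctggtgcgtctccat
Amd1, minus strand, chr10:40302139-40302438: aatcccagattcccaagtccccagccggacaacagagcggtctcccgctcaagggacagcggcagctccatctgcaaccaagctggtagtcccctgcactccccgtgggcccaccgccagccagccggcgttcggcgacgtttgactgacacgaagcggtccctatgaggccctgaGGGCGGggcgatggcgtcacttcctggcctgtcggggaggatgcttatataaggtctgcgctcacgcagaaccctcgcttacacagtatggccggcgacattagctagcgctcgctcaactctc
The Odc1 window holds GGGCGG at 4 places and has a GC content of 78%, and the Amd1 window holds it at 1 place and has a GC content of 63%. Promoters were matched for 6 of the 10 genes (Odc1, Amd1, Slc3a2, Slc7a1, Slc7a6 and Slc38a2), in 8 windows. Slc7a5, Srm, Slc1a5 and Slc38a1 had no window. GGGCGG, a motif chosen after the sequences had been seen, was found on either strand in 7 of the 8 windows, against 35.7% of 32851 promoters. The windows of Slc7a6 overlap and share their GGGCGG, so the 7 windows are not separate promoters. CACGTG, the E-box, was in 0 of the 8 (7.15% of all promoters), and TGATGNAA, the core of the C/EBP-ATF element, also in 0 of the 8 (3.97%). These counts describe letters in the windows.

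The polyamine genes have near-identical copies that the counting could split. At 90% identity or more over at least 200 bases, Odc1 had such copies under 14 other gene symbols in GENCODE M21, Amd1 under 8 and Srm under 1. The 7 transporter genes had 0. The nearest were Gm9115, a processed pseudogene 96.7% identical to Odc1, Amd2, a protein-coding gene 99.6% identical to Amd1, and Gm5364, a processed pseudogene 91.2% identical to Srm. Levels of these 3 genes are uncertain to that extent.

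Counted together, 3 of the 10 genes passed the test on the lower side and 0 on the higher side in all sorted cells, where 30.4% of the 9574 tested genes were called lower and 2.45% higher. The KO-labelled libraries were both below the WT-labelled ones for 9 of the 10, Slc1a5 being the exception, where that held for 56.6% of all tested genes. The list was built with this contrast in view, and nothing is read from either share. The median log2 fold change was -0.30 for the 10 genes and -0.24 for all tested genes. Centring each library on its median gene moved the median of all genes to 0.01, and it left Slc7a5 at -1.53 (adjusted p = 8.43e-10), Odc1 at -1.71 (adjusted p = 1.13e-09) and Srm at -0.53 (adjusted p = 0.0249), all 3 still called, where 11.9% of all genes were called lower. After centring, Slc3a2, Slc1a5, Slc38a1, Slc7a6 and Amd1 stood slightly above 0, at 0.05, 0.24, 0.01, 0.03 and 0.11, and all genes split into 1141 lower and 1027 higher calls in place of 2909 and 235. In the authors' deposited table the same 3 genes were past an adjusted p of 0.05, Odc1 at a log2 fold change of -1.998 (1.04e-26), Slc7a5 at -1.99 (1.65e-20) and Srm at -0.75 (0.00170), where 15.4% of genes in it were lower at that threshold. The other 7 had adjusted p-values of 0.182 to 0.831 in the authors' deposited table.

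In Ttex cells 0 of the 10 genes were called by limma, where 0.0239% of 12559 tested rows were called in either direction. By unadjusted p under 0.05 there was 1 member, Slc38a2, against 14.2% of all rows, and on recovered reads edgeR (0.12% of rows called) and DESeq2 (3.03%) each called 0 members. KO-labelled libraries were both lower for 3 members (Slc7a5, Slc1a5 and Slc38a2) and both higher for 1 (Srm), where 28.2% and 19.9% of all rows did so. The median log2 fold change was -0.05 for the 10 genes and -0.06 for all rows. With 2 libraries a group, a difference of the size of these standard errors, 0.12 to 0.22, could not be told from none.

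**Figure D2:**
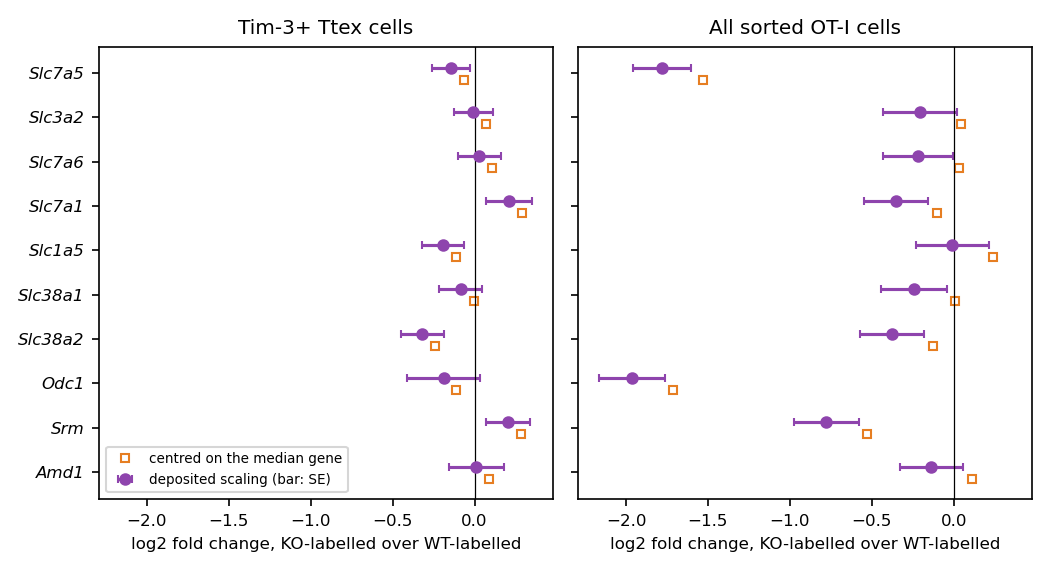
Log2 fold change, KO-labelled over WT-labelled, of the 10 genes in Ttex cells (left panel) and all sorted OT-I cells (right panel), as filled points with their SE on the deposited scaling and as open squares after centring each library on its median gene. Slc7a5, Odc1 and Srm lie at -1.78, -1.96 and -0.78 in all sorted cells, and every member lies between -0.32 and 0.21 in Ttex cells.

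The genotype difference itself differed between the populations for the 3 lower genes. The log2 fold change in Ttex cells minus that in all sorted cells was 1.63 (SE 0.21) for Slc7a5, 1.77 (SE 0.30) for Odc1 and 0.98 (SE 0.24) for Srm. In a model of recovered reads with an interaction term, edgeR gave 1.70 for Slc7a5 (adjusted p = 0.00117), 1.65 for Odc1 (adjusted p = 0.00583) and 0.81 for Srm (adjusted p = 0.0370), and 7.87% of the 11250 genes in that model were called. The term of Slc7a1 was 0.38 (adjusted p = 0.269), and those of the other 6 members ran between -0.41 and 0.05 with adjusted p-values of 0.391 to 0.981. The contrast in all sorted cells was in view when the list was made, so these differences are described and not offered as support. In bulk RNA, fewer cells of a type and less RNA per cell cannot be told apart, and the Tim-3+ cells are also part of all sorted cells.

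Within a library the 3 genes also held a different place among other genes. The tables were normalized separately, so places and not levels are set side by side, as the rank of a level per exon length among 8961 genes, where 1 is the highest. In Ttex cells Slc7a5 ranked 883 and 790 in KO-labelled and 740 and 746 in WT-labelled libraries, and in all sorted cells 6239 and 6273 in KO-labelled and 3259 and 3379 in WT-labelled libraries. Odc1 ranked 421 and 486 in KO-labelled and 329 and 444 in WT-labelled Ttex libraries, and 3658 and 3595 in KO-labelled and 1376 and 1282 in WT-labelled libraries of all sorted cells. Srm ranked 512 and 584 in KO-labelled and 611 and 629 in WT-labelled Ttex libraries, and 2994 and 2590 in KO-labelled and 2072 and 2042 in WT-labelled libraries of all sorted cells. So each of the 3 stood higher among genes in Ttex libraries of both labels. Slc3a2 held about the same place throughout, between 476 and 527 in Ttex cells and between 505 and 641 in all sorted cells. Other members stood lower in Ttex cells. Slc7a6 ranked 2403 to 2779 there and 1544 to 1612 in all sorted cells, and Slc38a1 3640 to 4146 and 2309 to 2524. Slc38a2 and Amd1 also stood lower in Ttex cells, and Slc1a5 and Slc7a1 overlapped. The tables differ in unit and depth as well, so population and table cannot be told apart in these ranks.

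**Figure D3:**
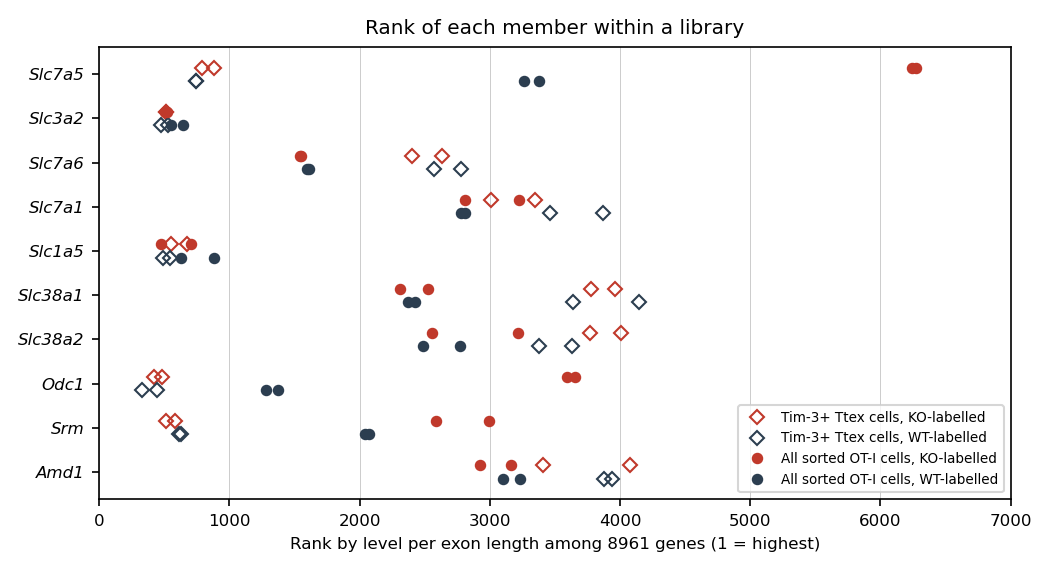
Rank of each of the 10 genes by level per exon length among 8961 genes (1 is the highest), with Ttex libraries as open diamonds and all sorted OT-I libraries as filled circles, KO-labelled in red and WT-labelled in dark blue. Slc7a5 ranked 883 and 790 in KO-labelled Ttex libraries and 6239 and 6273 in KO-labelled libraries of all sorted cells, while Slc3a2 stayed between 476 and 641 in all 8 libraries.

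The order of the members by level per exon length also changed with the label in all sorted cells. In KO-labelled libraries the order from the highest was Slc3a2 and Slc1a5, which were not separate, then Slc7a6, Slc38a1, then Srm, Slc38a2, Slc7a1 and Amd1, neighbours of which none was separate from the next, then Odc1 and last Slc7a5. In WT-labelled libraries it was Slc3a2, Slc1a5, Odc1, Slc7a6, Srm and Slc38a1, each separate from the next (no overlap of libraries), then Slc38a2 and Slc7a1, not separate, then Amd1 and Slc7a5, not separate. In Ttex cells of both labels Odc1, Slc3a2, Srm and Slc1a5 held the top 4 places, Slc7a5 the place after them and Slc7a6 the next. Odc1 was not separate from Slc3a2 in KO-labelled Ttex cells, and separate in WT-labelled ones.

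Odc1 protein is bound and destroyed with the help of antizyme, encoded by Oaz1, and antizyme is in turn held off by the antizyme inhibitor Azin1. Azin1 did not pass the test in either population: it had 4916 and 5312 normalized counts in KO-labelled and 5770 and 6567 in WT-labelled Ttex libraries (log2 fold change -0.27, adjusted p = 0.389), and 21.2 and 24.7 FPKM against 21.7 and 27.3 FPKM in all sorted cells (log2 fold change -0.08, adjusted p = 0.788). Per exon length, the Odc1 to Azin1 ratio was 9.32 and 6.72 in KO-labelled and 9.74 and 5.77 in WT-labelled Ttex libraries, which overlap. Among all sorted cells the ratio was 0.526 and 0.427 in KO-labelled and 1.99 and 1.74 in WT-labelled libraries, which do not. The Odc1 to Oaz1 ratio did not overlap between the labels in either population: it was 0.327 and 0.278 in KO-labelled and 0.418 and 0.341 in WT-labelled Ttex libraries, and 0.0282 and 0.0337 in KO-labelled and 0.0823 and 0.0982 in WT-labelled libraries of all sorted cells. The Odc1 to Srm ratio in Ttex cells, 1.27 and 1.17 in KO-labelled against 1.86 and 1.37 in WT-labelled libraries, did not overlap either. The Odc1 to Amd1 ratio in Ttex cells, 10.98 and 10.93 in KO-labelled against 15.69 and 10.09 in WT-labelled libraries, overlapped, as did Odc1 itself. These ratios were not tested, and 28.2% of single rows in Ttex cells had both KO-labelled libraries lower.

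**Figure D4:**
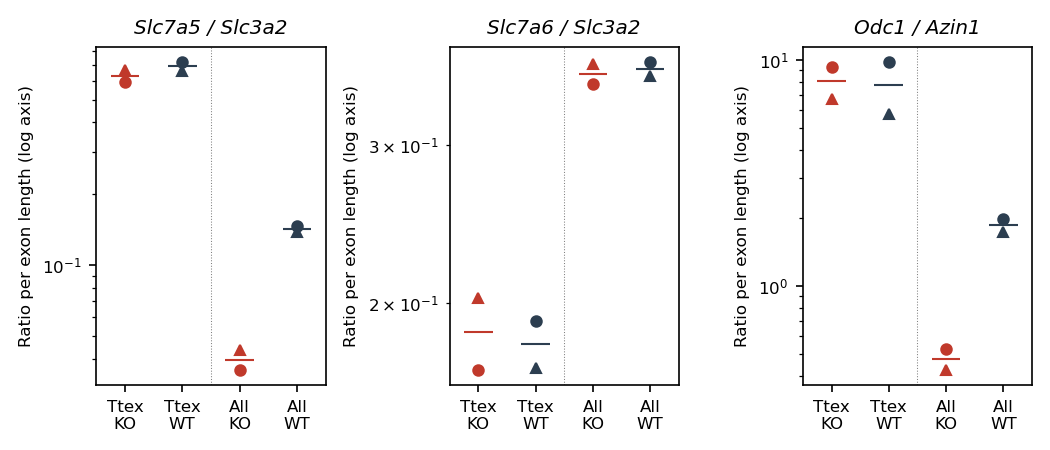
Ratio of levels per exon length within each library, on log axes, for Slc7a5 over Slc3a2, Slc7a6 over Slc3a2 and Odc1 over Azin1, with circles for replicate 1, triangles for replicate 2 and bars for the mean. For all sorted cells the ratios with Slc7a5 and Odc1 are lower in KO-labelled libraries (0.0360 and 0.0434 against 0.145 and 0.138 for Slc7a5), and the Slc7a6 ratio overlaps between labels in both populations.

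Other genes of these pathways were read from 6 lists chosen with earlier results known, in all 107 tested entries in all sorted cells, of which 27 were called lower and 2 higher on the deposited scaling, and 12 lower and 12 higher after centring. Over all tested genes the shares were 30.4% lower and 2.45% higher on the deposited scaling, and 11.9% lower and 10.7% higher after centring. Without WT-labelled replicate 2 the lower calls were 16, and without KO-labelled replicate 2 or WT-labelled replicate 1 they were 18. In Ttex cells 0 of 125 tested entries were called by limma, 12 had an unadjusted p under 0.05, and on recovered reads edgeR called 0 and DESeq2 called 1. Of 11 other amino acid transporters, 2 were called lower and 0 higher in all sorted cells (median log2 fold change 0.13, against -0.24 over all genes), and after centring 0 lower and 5 higher. The 2 were Slc36a4, an amino acid transporter of lysosomes and the cell surface (-0.40), and Slc16a10, a carrier of aromatic amino acids (-0.45).

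Of 21 other polyamine genes, 4 were called lower and 0 higher (median -0.33), where 30.4% of all genes were called lower. After centring 2 were called lower, where 11.9% of all genes were. Atp13a3, a polyamine transporter, had 1.02 and 1.44 FPKM in KO-labelled and 4.58 and 4.72 FPKM in WT-labelled libraries (log2 fold change -1.35, adjusted p = 3.47e-16). Arg1, which makes ornithine from arginine, had 1.40 and 1.64 FPKM in KO-labelled and 3.90 and 4.30 FPKM in WT-labelled libraries (log2 fold change -1.02, adjusted p = 1.41e-09), and it is also on the macrophage marker list. These 2 kept their call after centring. Sms, spermine synthase, had 15.8 and 13.8 FPKM in KO-labelled and 22.5 and 19.6 FPKM in WT-labelled libraries (log2 fold change -0.48, adjusted p = 0.0474), and Eif5a2, a relative of the translation factor that carries a spermidine-derived residue, had a log2 fold change of -0.58; neither kept its call. The genes with the highest mean in Ttex cells, Eif5a and Oaz1, had log2 fold changes of 0.15 and 0.14 there.

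Of 30 genes of mTORC1 and amino acid sensing, 10 were called lower and 1 higher, where 30.4% and 2.45% of all genes were. The median was -0.17, against -0.24 over all genes. After centring 3 were called lower and 4 higher, where 11.9% and 10.7% of all genes were. Those of highest level among the 10 were Lamtor5 (-0.61), Lamtor4 (-0.73), Lamtor3 (-0.63) and Lamtor2 (-0.55), subunits of the Ragulator complex that holds mTORC1 at the lysosome. None of these 4 kept its call after centring, and the 3 lower calls then were of other genes of the list. The lowest log2 fold change in the list was -1.355 on the deposited scaling and -1.105 after centring. Of 16 genes of the GCN2 and ATF4 response, the program that follows amino acid shortage, 2 were called lower (Cebpg, a transcription factor of the C/EBP family, at -0.71, and Psph, an enzyme of serine synthesis, at -0.49) and 1 higher (median -0.21), and after centring 1 lower and 2 higher. Atf4 itself had 93.3 and 82.0 FPKM in KO-labelled and 134.4 and 118 FPKM in WT-labelled libraries (log2 fold change -0.52, adjusted p = 0.0624, and 0.00742 with the replicate block). The authors' deposited table gives Atf4 a log2 fold change of -0.47 with an adjusted p of 0.0466. In Ttex cells Atf4 had 8050 and 6216 normalized counts in KO-labelled and 8841 and 5636 in WT-labelled libraries (log2 fold change 0.00, adjusted p = 0.997).

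Of 19 genes of glutamine and branched-chain amino acid metabolism, 4 were called lower and 0 higher (median -0.16), where 30.4% of all genes were called lower. After centring 3 were called lower and 1 higher, where 11.9% and 10.7% of all genes were. Glud1, which passes glutamate on to the citric acid cycle, had 10.7 and 9.98 FPKM in KO-labelled and 23.7 and 25.5 FPKM in WT-labelled libraries (log2 fold change -1.17, adjusted p = 4.95e-08). Gclc, of glutathione synthesis (-0.82), and Gfpt1, of the hexosamine pathway (-0.42), were also called lower. After centring Gclc kept its call, at -0.57, and Gfpt1 did not, at -0.18. In the interaction model Glud1 was at 0.95 (adjusted p = 0.0147), Ttex minus all sorted cells.

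Of 10 genes of the MYC network, 5 were called lower and 0 higher (median -0.42), where 30.4% of all genes were called lower, and after centring 3 lower, where 11.9% were. Myc itself had 143.7 and 125.7 FPKM in KO-labelled and 135.1 and 138.9 FPKM in WT-labelled libraries of all sorted cells (log2 fold change -0.03, adjusted p = 0.942). In Ttex cells it had 7532 and 9268 normalized counts in KO-labelled and 8294 and 7953 in WT-labelled libraries (log2 fold change 0.04, adjusted p = 0.913). The called genes of highest level were Mlxip, a partner of Mlx (-0.80), Max, the partner of MYC (-0.75), and Mnt (-0.75) and Mxi1 (-0.63), which compete with MYC for Max. Max had 2.81 and 2.82 FPKM in KO-labelled and 5.995 and 4.91 FPKM in WT-labelled libraries (adjusted p = 4.50e-05).

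**Figure D5:**
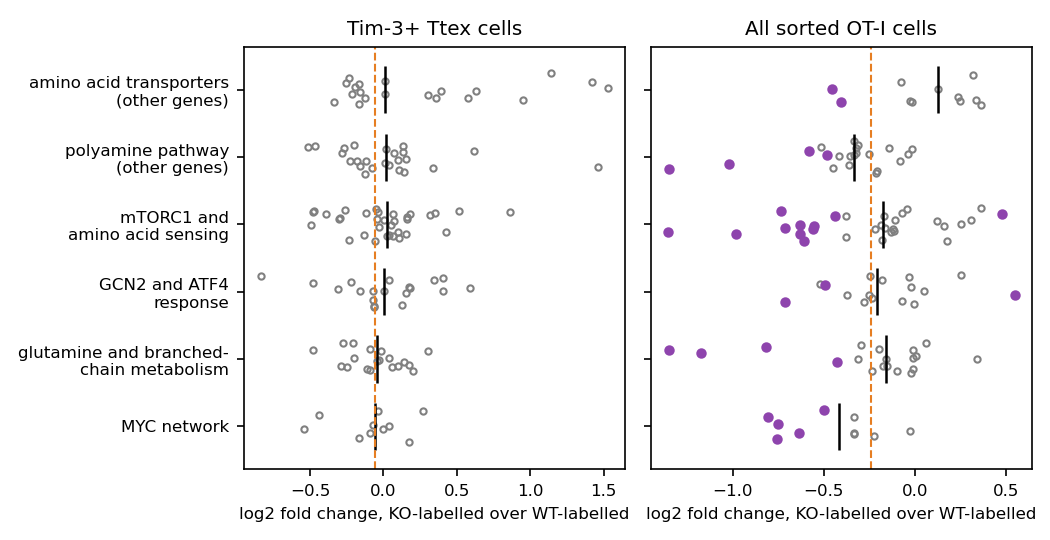
Log2 fold change, KO-labelled over WT-labelled, of each tested gene of 6 pathway lists in Ttex cells (left panel) and all sorted OT-I cells (right panel), with called genes filled, the median of the list as a black bar and the median of all tested genes as a dashed line. In all sorted cells 27 entries are filled on the lower side and 2 on the higher side, and in Ttex cells none.

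The genes whose pattern was most like that of Slc7a5 were Gnai2, Eif3b and Ppp1cc, at Euclidean distances of 0.16, 0.19 and 0.22 on the log2 scale over the 8 libraries and 8962 genes. Those nearest to Odc1 were Gnai2, Rac1 and Dusp2, at 0.46, 0.51 and 0.51. Gnai2 had 71198 and 69885 normalized counts in KO-labelled and 76739 and 69753 in WT-labelled Ttex libraries, and 12.7 and 11.5 FPKM in KO-labelled and 44.8 and 44.2 FPKM in WT-labelled libraries of all sorted cells. These nearest genes also stood lower in rank in all sorted cells than in Ttex cells: Gnai2 at 176 and 147 in KO-labelled and 141 and 130 in WT-labelled Ttex libraries, and at 3363 and 3379 in KO-labelled and 1330 and 1366 in WT-labelled libraries of all sorted cells.

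Marker lists of other cell types also differed between the labels, in both populations, and their part in the values above was not tested. Over all tested genes limma called 30.4% lower and 2.45% higher in all sorted cells, and 0.0239% in either direction in Ttex cells. At an unadjusted p under 0.05 the shares were 42% in all sorted cells and 14.2% in Ttex cells. On recovered reads edgeR called 27.7% and DESeq2 21.2% of genes in all sorted cells, and 0.12% and 3.03% of rows in Ttex cells. Of the 20 macrophage, monocyte and dendritic cell markers, 16 were tested in all sorted cells, 14 of them were lower and 0 higher in KO-labelled libraries, and their summed level was 576 and 502 FPKM in KO-labelled against 1159 and 1068 FPKM in WT-labelled libraries. In Ttex cells the same list summed to 112432 and 97734 normalized counts in KO-labelled and 50675 and 47051 in WT-labelled libraries, where limma called 0 of 20, 13 had an unadjusted p under 0.05, and on recovered reads edgeR called 4 and DESeq2 12, all higher. None of the 20 was at 0 in any library, and Adgre1, which marks macrophages, had 0.374 and 0.810 FPKM in KO-labelled and 1.84 and 2.75 FPKM in WT-labelled libraries of all sorted cells. Of the 11 melanoma markers, 6 were tested in all sorted cells, 4 of them were higher and 1 lower, with sums of 22.4 and 20.5 FPKM in KO-labelled and 12.7 and 16.3 FPKM in WT-labelled libraries. In Ttex cells they summed to 58398 and 61106 normalized counts in KO-labelled and 27601 and 28090 in WT-labelled libraries, where limma called 1 of 11, all 11 had an unadjusted p under 0.05, and on recovered reads edgeR called 2 and DESeq2 9, all higher. Of the 5 red blood cell genes, 4 were tested in all sorted cells and limma called all 4 higher. On recovered reads edgeR called 4 higher there and DESeq2 1. The list had sums of 22.3 and 15.4 FPKM in KO-labelled and 10.3 and 8.18 FPKM in WT-labelled libraries. In Ttex cells those sums were 17857 and 10643 normalized counts in KO-labelled and 3412 and 2138 in WT-labelled libraries; limma called 0 of 5, all 5 had an unadjusted p under 0.05, and on recovered reads edgeR called 1 and DESeq2 4. The 12 T cell markers summed to 551950 and 515837 normalized counts in KO-labelled and 554736 and 517742 in WT-labelled Ttex libraries. In all sorted cells they summed to 2764 and 2320 FPKM in KO-labelled and 3312 and 3124 FPKM in WT-labelled libraries. There limma called 3 of the 12 lower, where 30.4% of all genes were called lower. Of the neutrophil, B cell, fibroblast and endothelial markers limma called none in either population. At an unadjusted p under 0.05 in limma there were 3 of 8 tested in Ttex cells and 1 of 4 in all sorted cells. On recovered reads of Ttex cells edgeR called 0 and DESeq2 1. In all sorted cells edgeR called 3 and DESeq2 2 of 6 fibroblast and endothelial markers, all higher, of which limma had tested 1. Neither called a neutrophil or B cell marker there.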

How the data were processed

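RNA was isolated with TRIzol and sequenced by BGI Genomics (per the labels' protocols). Build mm10 and Trim Galore 0.4.4, Bowtie2, RSEM, featureCounts and DESeq2 are listed in the submitters' processing notes, with no roles. For all sorted OT-I cells the authors deposited values that have the form of FPKM, though the header names no unit. With merged exon lengths of GENCODE M21 and 1 divisor per library, 98.4 to 98.5% of values of 13093 genes under a mean of 1000 reads came within 0.1 read of a whole number. That divisor was 1.12 and 1.25 times the recovered total in KO-labelled and 0.961 and 0.950 times in WT-labelled libraries, so FPKM in KO-labelled libraries is scaled down by comparison. The same deposited table holds, by its column names, the authors' DESeq2 log2 fold change, Wald statistic (a score, not used here), p-value and adjusted p-value. The 3 further deposited sheets are selections from it and were not used. For Ttex cells the authors deposited a normalized signal, gene counts divided by a size factor; 100% of values were whole within 0.01 read, and 173 rows stood at exactly 1 step in every library, so 1 was taken off each count.

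Each table was fitted alone with limma 3.58.1 (limma-trend, two-sided, R 4.3.3) on log2(value + 1), for rows whose mean reached 1 FPKM (10 normalized counts in Ttex cells), with Benjamini-Hochberg adjustment over all tested genes and a threshold of 0.05. The prior degrees of freedom were infinite for all sorted cells, so that SEs there are those of genes at a level, and 4.48 for Ttex cells. The interaction was fitted on recovered reads with edgeR 4.0.16 (quasi-likelihood). Alternatives were centring on the median gene, upper-quartile scaling, no filter, a filter 5 times as strict, another pseudocount, a replicate block, edgeR, DESeq2 1.42.0, a threshold of 0.1 and leaving out each library. The limma step was tested on simulated data. The members, lists and rules were chosen with earlier results of these data known. Named are all members, up to 4 called genes per list with the highest mean in the direction with more calls (or, with none called, the 2 with the highest mean), Zbtb32, Myc, Atf4 and Azin1, and the 3 nearest genes of Slc7a5 and Odc1. Amd2 and the macrophage marker Adgre1 were named outside that rule after their values were seen. A gene that this rule names is not reported here. No protein sequences were used.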

Additional observations from a re-analysis of the deposited data

Results flagged for a closer look

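Of the 10 genes, 3 had a genotype difference that itself differed between Ttex cells and all sorted OT-I cells, by the interaction term of edgeR's quasi-likelihood test on recovered reads with Benjamini-Hochberg adjustment over all genes. For Slc7a5 the log2 fold change in Ttex cells minus that in all sorted cells was 1.70 (adjusted p = 0.00117). For Odc1 it was 1.65 (adjusted p = 0.00583), and for Srm 0.81 (adjusted p = 0.0370). Over all 11250 genes of that model, 7.87% were called. The KO-labelled libraries were both below the WT-labelled ones in all sorted cells for each of the 3, and in Ttex cells for Slc7a5 alone. The 3 genes were chosen with the contrast in all sorted cells known, and the 2 tables come from libraries of unlike depth that were normalized separately.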

How the results depend on the processing

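For the 10 genes the calls, 3 lower in all sorted cells and 0 in Ttex cells, kept their number under every alternative run, and the same 3 genes were lower. Leaving out 1 library in turn, where a lone library is assumed to vary like the other group, gave -1.80 to -1.76 for Slc7a5, -2.03 to -1.89 for Odc1 and -0.83 to -0.72 for Srm. Uncalled genes changed sign. In all sorted cells centring gave 0.0455 for Slc3a2, 0.24 for Slc1a5, 0.0067 for Slc38a1, 0.0318 for Slc7a6 and 0.11 for Amd1, and upper-quartile scaling 0.0443, 0.24, 0.026 and 0.10 for Slc3a2, Slc1a5, Slc7a6 and Amd1. Slc1a5 was also at 0.11 with edgeR, 0.0804 with DESeq2 and 0.0813 in the authors' deposited table, and at -0.36 to 0.34 with a library left out. In Ttex cells Slc3a2 was at 0.0693 with centring, 0.0656 with upper-quartile scaling, and 0.0385 with edgeR and with DESeq2. With a Ttex library left out, Slc3a2 ran between -0.0497 and 0.0305, Slc38a1 between -0.21 and 0.0369, Slc7a6 between -0.0622 and 0.12, Odc1 between -0.47 and 0.0948 and Amd1 between -0.17 and 0.19. Over all genes, 2909 lower calls in all sorted cells became 1141 with centring, 1100 with upper-quartile scaling, 1557 with the strict filter and 1497 to 2618 with a library left out (1790 without KO-labelled replicate 2, 1497 without WT-labelled replicate 1, 1818 without WT-labelled replicate 2). The 235 higher calls became 1027, 574, 69 and 105 to 300, and 1651 without a filter, 1859 with edgeR, 736 with DESeq2 and 744 in the authors' deposited table. The 27 lower calls over the 6 lists became 12 with centring, 13 with upper-quartile scaling, 9 with the strict filter and 16 to 24 with a library left out. The 2 higher calls became 12, 7, 8 without a filter, 4 with the replicate block, 12 with edgeR, 7 with DESeq2, 7 in the authors' table, 4 at a threshold of 0.1 and 0 to 4 with a library left out. In Ttex cells the 1 lower call became 0 without a filter, 65 with DESeq2, 2 at a threshold of 0.1 and 0 to 1 with a library left out. The 2 higher calls became 14 with centring, upper-quartile scaling or edgeR, 0 without a filter, 16 with the strict filter, 4 with another pseudocount, 320 with DESeq2, 18 at a threshold of 0.1 and 0 to 25 with a library left out. DESeq2 called 1 gene of the lists higher there. The cause of these changes was not tested. Replicate numbers were shared between labels, but same-numbered libraries deviated together with r = 0.299 in all sorted and 0.139 in Ttex cells. The labels do not say whether a number marks a shared host, and 2 pairs are too few to decide it from the data, so the libraries were not treated as paired. With that replicate block, 3510 genes were lower and 326 higher in all sorted cells, and 391 lower and 453 higher in Ttex cells, of the lists 3 and 1. Members had 279 to 9170 reads per library in all sorted cells and 1821 to 32466 in Ttex cells, so counting error limits Slc7a5 in KO-labelled libraries of all sorted cells most.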
